A study of Homo sapiens with 24 samples.

Results

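Matrix metalloproteinases and their tissue inhibitors were followed across 24 RNA-seq libraries as a set of 10 genes, 7 proteinases (MMP1, MMP2, MMP3, MMP7, MMP9, MMP10 and MMP14) and 3 inhibitors (TIMP1, TIMP2 and TIMP3). They were taken by gene name from tables of 48162 genes, and all 10 were found. The study asked what vesicles from pancreatic cancer cells do to normal pancreas cells. Its recipients were hTERT-HPNE (HPNE), a pancreas line immortalised with telomerase, and HPDE-H6c7 (HPDE), duct epithelial cells of the pancreas that were also immortalised. Each is 1 cell line and not a tissue. All wells shared keratinocyte serum-free medium with penicillin-streptomycin, and each line was split into 4 groups of 3 biological replicates. For 24 h the cells received fresh serum-free medium (untreated, titled Control), residual medium left after vesicles had been isolated (titled Neg. Control), extracellular vesicles (EV) of PANC-1 cells, or EV of PPCL-68 cells, with 1e10 vesicles per well. PANC-1 is an established pancreatic carcinoma line.

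Metalloproteinases are zinc enzymes that cut proteins of the extracellular matrix, and most are secreted as inactive proenzymes. MMP1 is a collagenase of fibrillar collagen, MMP3 and MMP10 are stromelysins with broad substrates, MMP7 is matrilysin, and MMP2 and MMP9 are gelatinases that cut basement membrane collagen. MMP14 sits in the plasma membrane, where it activates pro-MMP2 with TIMP2 as a bridge. The TIMP proteins bind the active site of the enzymes. In the pancreas these genes are known from fibroblasts and stellate cells of scarred tissue and from invading carcinoma, and MMP7 and MMP9 also from duct epithelium and inflammatory cells.

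The genes MMP7, MMP10, MMP1 and MMP3 lie together on the minus strand of chromosome 11 (hg19, the build named in the submitters' processing notes). MMP7 spans 102391239 to 102401484, MMP10 102641234 to 102651359, MMP1 102660651 to 102668891 and MMP3 102706532 to 102714534. MMP2 lies on chromosome 16 (55423612 to 55540603), MMP14 on chromosome 14 (23305766 to 23318236) and MMP9 on chromosome 20 (44637547 to 44645200). TIMP1 lies on chromosome X (47441712 to 47446188), TIMP2 on chromosome 17 (76849059 to 76921469) and TIMP3 on chromosome 22 (33197687 to 33259030). Promoter sequences from RefSeq on GRCh38.p14 matched 5 of the 10 genes (MMP7, MMP10, MMP14, TIMP1 and TIMP3), and MMP1, MMP2, MMP3, MMP9 and TIMP2 were not among them. The 250 bases before the start were searched on both strands for TGANTCA, in which N is any base. This is a loose form of the core bound by the FOS and JUN dimer AP-1, a classical regulator of collagenase and stromelysin genes. The 110 bases before the start are shown for the chromosome 11 members with a match, MMP10 and MMP7, and for MMP14, without a match. Capitals mark the match.
MMP10, chr11:102780629-102780738, minus strand, GRCh38.p14: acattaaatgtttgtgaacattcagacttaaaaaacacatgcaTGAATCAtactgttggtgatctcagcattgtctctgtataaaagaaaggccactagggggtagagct
MMP7, chr11:102530748-102530857, minus strand, GRCh38.p14: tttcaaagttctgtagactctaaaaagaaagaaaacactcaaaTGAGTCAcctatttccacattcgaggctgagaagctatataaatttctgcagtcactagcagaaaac
MMP14, chr14:22836475-22836584, plus strand, GRCh38.p14: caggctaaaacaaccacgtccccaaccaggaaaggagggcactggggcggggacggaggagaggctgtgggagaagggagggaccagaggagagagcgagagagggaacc
The match began 67 bases before the start in MMP10 and in MMP7 alike, with the middle base A in MMP10 and G in MMP7. Each held 1 match. Of 35116 promoter windows of this length, 6.57% held one. TIMP1 and TIMP3 held none. A match of letters is a description and not a measured binding site.

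An HPNE library held 29874928 to 46490312 reads counted in genes, and an HPDE library 29209142 to 42206773. In each HPNE group 1 library lay apart from a close pair (replicate 3 in both control groups, replicate 1 in both vesicle groups), at 2.05 to 3.31 times the distance within the pair, against 1.08 to 1.24 times in HPDE. Comparisons within HPNE are therefore also given without these 4 libraries where a member's call changes. The 4 were picked by distance in these same data, which leaves the close pair of each group and narrows the spread. Adjusted p-values and counts without the 4 are therefore descriptions and not tests of a call. Markers went with the label of HPDE, in which all 7 duct epithelium genes had over 3 reads in every library. They did not in HPNE. There 4 or 5 of the 7 had over 3 reads in every library of a group, but their summed level was at most 15.7 FPKM, with EPCAM at most at 12 reads, KRT19 at most at 0.905 FPKM and KRT18 at 3.21 to 5.13 FPKM. Of the 6 mesenchymal markers all had over 3 reads in every HPNE library, and 4 or 5 in every library of an HPDE group, where they summed to 78.8 to 152 FPKM. The mesenchymal sum was 11410 to 12388 FPKM in untreated HPNE cells, 8669 to 11755 with residual medium, 10049 to 12096 after PANC-1 EV and then 8360 to 10140 after PPCL-68 EV, and its part in the HPNE results was not tested. Summed over 5 of 6 markers of leukocytes, endothelium, islet and acinar cells, the level was at most 2.23 FPKM in any library.

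Levels in untreated cells are given as FPKM, which divides reads by the length of the gene and by library size, so they can be compared between genes. In HPNE the most abundant were MMP14 (537 ± 138 FPKM, SD, n = 3), MMP2 (509 ± 37.3), TIMP2 (435 ± 15.3) and TIMP1 (401 ± 31.5). The MMP14 range (377 to 621 FPKM) covered those of MMP2 and TIMP2 and reached into that of TIMP1. From MMP2 down to MMP10 each step was without overlap. MMP1 followed at 70.5 ± 25.7 FPKM, TIMP3 at 4.45 ± 0.518, MMP3 at 0.231 ± 0.0777 and MMP10 at 0.0698 ± 0.0510. MMP9 had 1 read in 1 HPNE library and none in the other two, and MMP7 had 0 reads in all 3, which allows at most 3 reads per library.

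The order in untreated HPDE was different. MMP14 led again at 156 ± 6.73 FPKM, followed by TIMP1 (78.4 ± 2.48), MMP1 (16.6 ± 1.02), TIMP2 (14.7 ± 0.198), MMP9 (12.6 ± 2.24) and TIMP3 (11.1 ± 1.06). TIMP2 and MMP9 overlapped, as did MMP9 and TIMP3. MMP10 (0.496 ± 0.245), MMP7 (0.478 ± 0.0670), MMP2 (0.438 ± 0.161) and MMP3 (0.102 ± 0.0934) were all under 1 FPKM. Of these, MMP10, MMP7 and MMP2 overlapped, and MMP3 lay below them without touching MMP2.

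**Figure D1:**
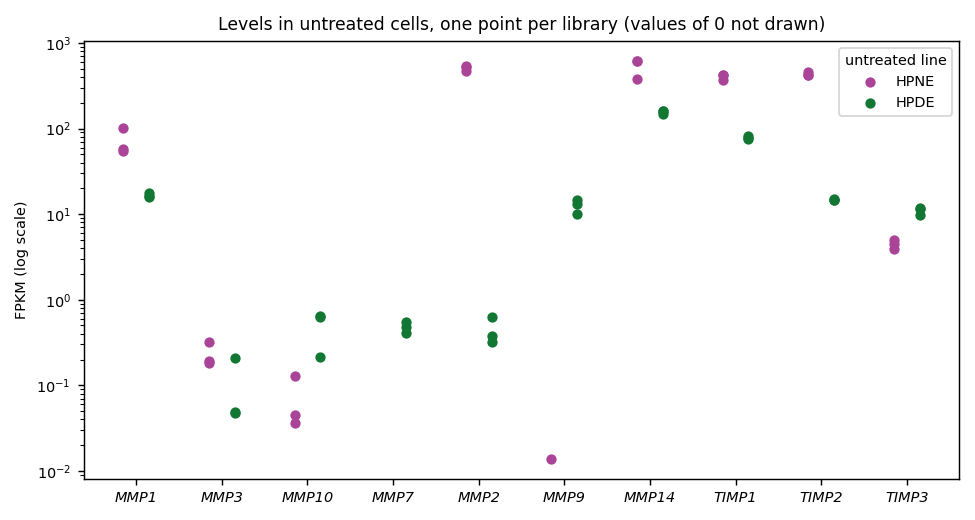
FPKM on a log axis (y) of the 10 genes (x) in untreated HPNE and HPDE cells, with one point per library and values of 0 not drawn. MMP2 stands at 509 FPKM in HPNE and 0.438 in HPDE by the mean, while MMP9 is drawn for 1 HPNE library only.

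The lines were compared without treatment in one limma fit of all 24 libraries, on log2(FPKM + 1), with Benjamini-Hochberg adjustment over 13243 genes. Of all genes tested 84.0% differed, and of the 9 members tested 8 differed (3 higher in HPDE, where 56.0% of all genes were, and 5 lower, where 28.0% were). MMP2 was 1163-fold higher in HPNE by mean FPKM (log2 difference -8.47, SE 0.13, adjusted p 6.51e-22) and TIMP2 29.6-fold (log2 difference -4.80, SE 0.05, adjusted p 3.01e-24). TIMP1 was 5.11-fold, MMP1 4.26-fold and MMP14 3.43-fold higher in HPNE, with adjusted p of 1.47e-13, 1.73e-06 and 2.26e-09. MMP9, TIMP3 and MMP10 were higher in HPDE (adjusted p 9.44e-15, 1.86e-08 and 0.0105), and MMP3 did not pass the threshold (adjusted p 0.595). Division by size factors moved the median of all genes in this comparison by -0.30 and the split of all genes from 7415 higher and 3708 lower to 5829 and 5033, and the members kept their calls. The share of a cell type and its RNA per cell cannot be told apart in bulk libraries.

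Treatments were compared within each line. Of the 10 members 7 passed the filter of a mean of 1 FPKM in HPNE (MMP1, MMP2, MMP3, MMP14, TIMP1, TIMP2 and TIMP3) and 7 in HPDE (MMP1, MMP9, MMP10, MMP14, TIMP1, TIMP2 and TIMP3). The filter runs over all groups of a line, so a gene low in some groups can pass through the others. MMP3 did so in HPNE, as did TIMP3, which was low with residual medium, and MMP10 in HPDE through its vesicle groups. Counts of genes that rose or fell include such genes. In HPNE residual medium changed 6 of 7 relative to untreated cells (3 higher, 3 lower), where 43.9% of all genes were called, 18.7% higher and 25.2% lower. Relative to residual medium, 5 of 7 differed after PANC-1 EV (3 higher, 2 lower; 24.2% of all genes, 13.9% higher and 10.3% lower) and 1 of 7 after PPCL-68 EV (lower; 39.9% of all genes, 20.3% higher and 19.7% lower). Without the 4 libraries that lay apart these 3 counts were 7, 7 and 5, and fewer replicates, kept for their closeness, then carried each call. Relative to untreated cells, 3 of 7 differed after PANC-1 EV (2 higher, 1 lower), where 21.1% of all genes were called, 9.61% higher and 11.5% lower. After PPCL-68 EV 5 of 7 differed (2 higher, 3 lower), where 42.5% were called, 18.7% higher and 23.8% lower. Without the 4 libraries these counts were 6 and 6. The vesicle types differed from each other in 3 of 7 members (2 higher with PANC-1 EV, 1 lower), where 5.47% of all genes differed, 3.22% higher and 2.25% lower, and without the 4 libraries in 6 of 7. Further members had an adjusted p under the threshold without them, as a description. Against untreated cells these were MMP2, MMP14 and TIMP2 lower with PANC-1 EV (-0.44, -0.47 and -0.21, with adjusted p 8.62e-05, 3.39e-05 and 0.00569) and MMP14 lower with PPCL-68 EV (-0.63, adjusted p 3.03e-06). Between the vesicle types they were MMP1 lower and MMP2 and MMP14 higher with PANC-1 EV (-0.32, 0.30 and 0.15; adjusted p 0.00577, 0.00253 and 0.043).

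In HPDE residual medium changed 6 of 7 members relative to untreated cells, all of them higher, where 20.0% of all genes were called and 9.93% were higher. PANC-1 EV changed 5 of 7 relative to residual medium (2 higher, 3 lower; 63.3% of all genes, 28.2% higher and 35.1% lower) and PPCL-68 EV 6 of 7 (4 higher, 2 lower; 67.7%, 31.3% higher and 36.4% lower). Relative to untreated cells the counts were 6 of 7 (4 higher, 2 lower; 60.6%, 26.3% higher and 34.4% lower) and 5 of 7 (all higher; 66.3%, 30.1% higher and 36.1% lower). The vesicle types differed in 5 of 7 members, all lower with PANC-1 EV, where 50.1% of all genes differed and 24.9% were lower. The median log2 difference of the members for residual medium relative to untreated cells was 0.52 in HPDE, beside -0.01 over all genes, and -0.48 in HPNE, beside -0.05. The HPNE median is the value of MMP14, which was not called, with 3 members called higher and 3 lower. In the HPNE comparison of residual medium with untreated cells, division by size factors moved the median of all genes by 0.11, and the split of all genes from 2153 higher and 2899 lower to 3328 and 2083, while no member changed its call. The HPNE split moved likewise for PANC-1 EV against residual medium (1599 higher and 1185 lower to 1341 and 1849) and against untreated cells (1105 and 1325 to 1509 and 1079), and for PPCL-68 EV against untreated cells (2151 and 2740 to 2826 and 2296). Smaller moves turned the majority for PPCL-68 EV against residual medium in HPNE (2334 and 2261 to 2153 and 2725). In HPDE they did so for PANC-1 EV and PPCL-68 EV against untreated cells (3214 and 4199 to 3706 and 3566; 3684 and 4416 to 4073 and 3952) and for residual medium (1214 and 1229 to 1311 and 1099). The summed level of the 7 duct epithelium markers in HPDE also differed between groups, at 2786 to 3031 FPKM in untreated cells, 3152 to 3529 with residual medium, 1563 to 1824 after PANC-1 EV and then 1445 to 1459 after PPCL-68 EV. Its part in the HPDE results was not tested.

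**Figure D2:**
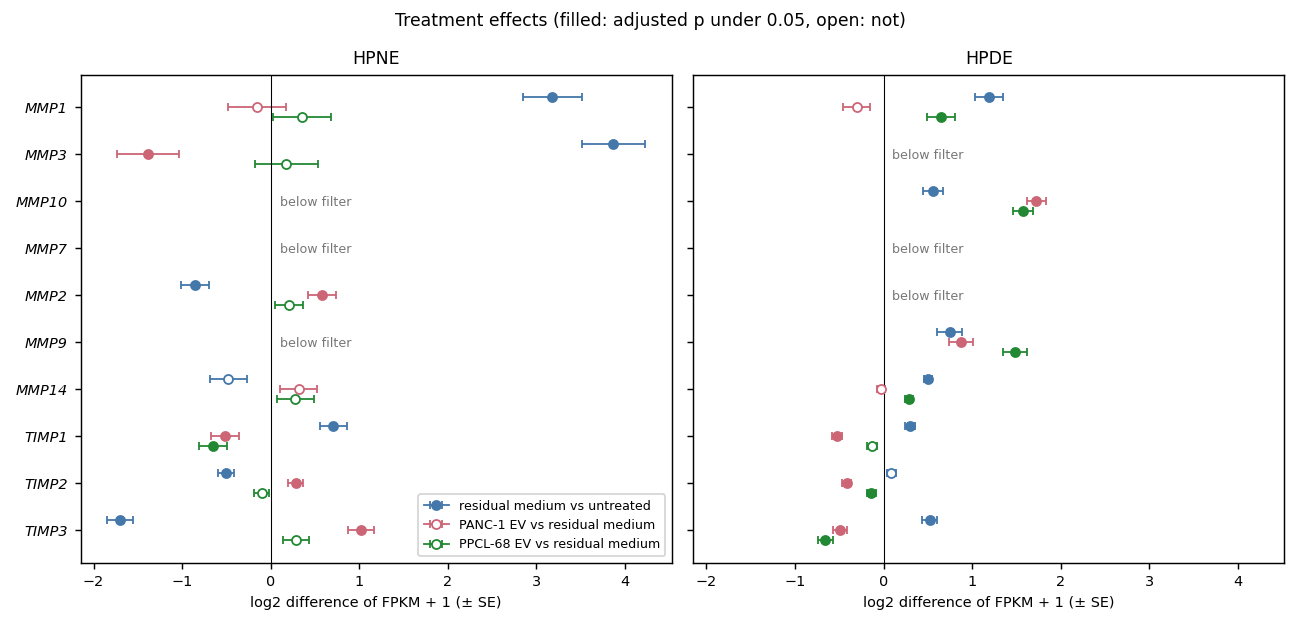
Log2 difference of FPKM + 1 with its standard error (x) for each gene (y) in HPNE (left) and HPDE (right), for residual medium against untreated cells and for each vesicle type against residual medium; filled points passed an adjusted p of 0.05. MMP1 and MMP3 stand far to the right in HPNE with residual medium (3.18 and 3.87), and MMP10 and MMP9 in HPDE with vesicles (1.73 and 0.87 for those of PANC-1, 1.58 and 1.49 for those of PPCL-68).

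The collagenase MMP1 rose with residual medium in both lines. In HPNE it had 57.2, 54.2 and 100.1 FPKM in the untreated replicates and 856, 820 and 343 FPKM with residual medium, a 9.54-fold rise of the mean (log2 difference 3.18, SE 0.33, adjusted p 8.69e-05, limma). With PANC-1 EV it had 454, 669 and 576 FPKM and with PPCL-68 EV 839, 780 and 766 FPKM. Every treated HPNE library was above every untreated one, and residual medium replicate 3 was the lowest treated library. The vesicle groups overlapped the residual medium group, and neither difference passed the threshold (log2 differences -0.15 and 0.35, adjusted p 0.757 and 0.425). Without the 4 libraries that lay apart the first became -0.43 (adjusted p 0.000397). Relative to untreated cells MMP1 was 8.03-fold and 11.3-fold higher (adjusted p 0.000241 and 2.34e-05).

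In HPDE the MMP1 level was lower throughout, with 17.7, 16.2 and 15.8 FPKM in untreated cells and 58.1, 32.7 and 31.2 FPKM with residual medium. This was a 2.45-fold rise of the mean (log2 difference 1.19, SE 0.16, adjusted p 0.000128), in which replicate 1 stood high. PANC-1 EV gave 30.6, 32.8 and 30.7 FPKM, of which replicate 2 lay within the range of the residual medium group and the others just below it (log2 difference -0.31, adjusted p 0.102; -0.43 and -0.46, adjusted p 0.0367 and 0.0188, without residual medium replicate 2 or 3). PPCL-68 EV gave 63.1, 61.0 and 61.1 FPKM, above all other HPDE groups. MMP1 thus differed between PPCL-68 EV and residual medium by a log2 difference of 0.65 (SE 0.16, adjusted p 0.00198) and between the vesicle types (log2 difference -0.96 for PANC-1 EV against PPCL-68 EV, adjusted p 0.000175). With no filter on low values the call against residual medium was lost (adjusted p 0.0563).

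Of the stromelysins, MMP3 moved in HPNE over the widest range of the 7 members tested there. Untreated HPNE libraries had 0.320, 0.190 and 0.182 FPKM, from 20, 12 and 14 reads. Residual medium libraries had 24.0, 23.9 and 8.29 FPKM, 81.2-fold more by the mean (log2 difference 3.87, SE 0.35, adjusted p 3.9e-05, and 6.23 by limma voom on recovered reads, since a pseudocount of 1 understates the change of so low a gene). With PANC-1 EV MMP3 had 3.53, 6.68 and 8.33 FPKM and with PPCL-68 EV 20.8, 16.2 and 21.3 FPKM.

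MMP3 was thus lower with PANC-1 EV than with residual medium (log2 difference -1.38, SE 0.35, adjusted p 0.0173), although the highest PANC-1 EV library lay just above residual medium replicate 3. The call was lost without PANC-1 EV replicate 1 (adjusted p 0.0595) and without residual medium replicate 1 or 2 (0.0771 and 0.0761). MMP3 was also lower with PANC-1 EV than in the PPCL-68 EV group, with no overlap (log2 difference -1.56, SE 0.35, adjusted p 0.0293). Same-numbered libraries of these vesicle groups deviated together, and in a fit blocked on replicate number that adjusted p was 0.0542. It was also lost in 5 of the fits without 1 library of either vesicle group (adjusted p up to 0.107). With PPCL-68 EV MMP3 did not differ from residual medium past the threshold (log2 difference 0.18, adjusted p 0.717); without the 4 libraries that lay apart this turned to -0.35 (adjusted p 0.0315).

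In HPDE MMP3 stayed under the filter. Its highest level was with PPCL-68 EV, at 1.19, 1.08 and 0.612 FPKM, against 0.0510, 0.0987 and 0.148 FPKM with residual medium and 0.0470 to 0.210 FPKM in untreated cells. With no filter on low values the difference from residual medium was 0.82 (SE 0.12, adjusted p 0.00111) with PPCL-68 EV and 0.27 (adjusted p 0.248) with PANC-1 EV. By mean FPKM these were 9.68-fold and 3.29-fold rises, from 4, 7 and 10 reads in the residual medium libraries. All 3 PPCL-68 EV libraries were above every other HPDE library.

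The other stromelysin, MMP10, was the tested member with the largest vesicle effect over residual medium in HPDE, on log2(FPKM + 1). MMP3, under the filter, was not ranked. MMP10 had 0.641, 0.633 and 0.212 FPKM in untreated cells and 1.05, 1.26 and 1.24 FPKM with residual medium. PANC-1 EV raised it to 6.13, 6.04 and 6.49 FPKM and PPCL-68 EV to 5.92, 4.75 and 5.94 FPKM. The groups with vesicles lay far above both controls with no overlap. Relative to residual medium these were 5.25-fold and 4.67-fold rises of the mean (log2 differences 1.73 and 1.58, SE 0.11, adjusted p 1.08e-08 and 1.61e-08), and relative to untreated cells 12.5-fold and 11.2-fold. Residual medium itself raised it 2.39-fold (log2 difference 0.56, adjusted p 0.00341; 1.42 by limma voom). With no filter on low values the residual medium call was lost (adjusted p 0.0577). The vesicle types did not differ past the threshold (log2 difference 0.15, adjusted p 0.287), with the 3 PANC-1 EV libraries just above the 3 PPCL-68 EV ones.

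MMP10 was too low for the filter in HPNE. Untreated libraries had 7, 2 and 3 reads, residual medium libraries 25, 32 and 29, and PANC-1 EV libraries 33, 29 and 18. PPCL-68 EV libraries had 199, 57 and 127 reads (2.98, 1.09 and 1.97 FPKM), more than any other HPNE library. Fitted with no filter, the difference from residual medium was 0.98 with PPCL-68 EV (adjusted p 0.0212) and -0.09 with PANC-1 EV (adjusted p 1). WTAPP1, a pseudogene on the opposite strand, spans MMP10, MMP1 and MMP3, and the library kit kept no strand. It reached 39 reads in HPNE and 11 in HPDE, counted in the library with most. In the library with the highest share it had 156% as many reads as MMP10 in HPNE and 9.72% in HPDE. Against MMP3 the highest shares were 10.2% in HPNE and 175% in HPDE, and against MMP1 0.0808% and 0.285%. MMP3 and MMP10 were the only pair of the 45 whose annotated transcripts (GENCODE 29) shared exact stretches of 50 bases, which were 2.95% of those of MMP3 and 3.36% of those of MMP10. In the HPDE libraries with high MMP10, MMP3 had 18 to 81 reads against 304 to 373 of MMP10. Whether reads of this pair were assigned to each other was not tested.

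The promoter window of matrilysin, MMP7, holds a TGANTCA match at the same distance as that of MMP10, with another middle base (TGAGTCA against TGAATCA). MMP7 was under the filter in both lines. In HPNE it had at most 3 reads in any library. In HPDE it had 0.476, 0.412 and 0.546 FPKM in untreated cells and 1.20, 0.903 and 0.992 FPKM with residual medium. With PANC-1 EV it had 0.688, 0.454 and 1.18 FPKM and with PPCL-68 EV 0.518, 0.509 and 0.614 FPKM. The PPCL-68 EV group lay below the residual medium group and the PANC-1 EV group overlapped it. With no filter neither difference passed the threshold (log2 differences -0.39 and -0.21, adjusted p 0.0838 and 0.508), and the residual medium group lay above the untreated group (0.46, adjusted p 0.143).

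The gelatinases were split between the lines, with MMP2 in HPNE and MMP9 in HPDE. MMP2 fell in HPNE with residual medium, from 539, 520 and 467 to 251, 239 and 368 FPKM (log2 difference -0.85, SE 0.16, adjusted p 0.00229), with no overlap. PANC-1 EV libraries had 482, 397 and 385 FPKM, all above the residual medium libraries (log2 difference 0.58, SE 0.16, adjusted p 0.0245). This call was lost without PANC-1 EV replicate 1 or 2 (adjusted p 0.0782 and 0.0528) and without residual medium replicate 1 or 2 (0.102 and 0.108). PPCL-68 EV libraries had 335, 304 and 331 FPKM, which overlapped the residual medium group (log2 difference 0.20, adjusted p 0.339; 0.40, adjusted p 0.0201, without residual medium replicate 3, and 0.37, adjusted p 0.000219, without the 4 libraries that lay apart) and was lower than in untreated cells (log2 difference -0.65, adjusted p 0.00735). In HPDE MMP2 had 31 to 98 reads per library, at most 0.628 FPKM, and the ranges of its groups overlapped.

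MMP9 stood at a different level in each HPDE group. It had 10.1, 14.5 and 13.2 FPKM in untreated cells and 25.5, 19.5 and 20.3 with residual medium. With PANC-1 EV it had 40.2, 43.1 and 37.9 and with PPCL-68 EV 49.7, 68.9 and 70.7. No 2 of these groups overlapped. Residual medium raised it 1.72-fold over untreated cells (log2 difference 0.74, SE 0.14, adjusted p 0.00201), PANC-1 EV 1.86-fold over residual medium (0.87, adjusted p 6.98e-05) and PPCL-68 EV 2.90-fold over residual medium (1.49, adjusted p 2.62e-07). PANC-1 EV gave less than PPCL-68 EV, by a log2 difference of -0.61 (SE 0.14, adjusted p 0.00197). With no filter on low values this call and that of residual medium were lost (adjusted p 0.0576 and 0.07). In HPNE MMP9 had 0 to 51 reads per library, and the libraries with more than 5 were PANC-1 EV replicates 2 and 3 (25 and 27 reads) and PPCL-68 EV replicate 3 (51 reads).

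MMP14, the membrane proteinase, was abundant in both lines. In HPDE residual medium raised it from 149, 160 and 161 to 227, 219 and 221 FPKM (log2 difference 0.50, SE 0.04, adjusted p 2.55e-06). PANC-1 EV libraries had 215, 225 and 213 FPKM, of which replicate 2 lay within the residual medium range and the others below it (log2 difference -0.03, SE 0.04, adjusted p 0.59), and PPCL-68 EV libraries were higher at 260, 277 and 274 FPKM (log2 difference 0.28, adjusted p 5.98e-05). The difference of PANC-1 EV against PPCL-68 EV was -0.31 (adjusted p 5.8e-05). In HPNE the untreated libraries were spread widely, at 621, 612 and 377 FPKM, against 357, 352 and 421 FPKM with residual medium. The difference of -0.48 did not pass the threshold (adjusted p 0.0859). Without untreated replicate 3 it was -0.71 (adjusted p 0.0109), and without the 4 libraries that lay apart -0.80 (adjusted p 4.06e-07). Those libraries, untreated replicate 3 among them, were picked by distance in these same data. Adjusted p-values without them describe and do not test a call. PANC-1 EV libraries had 519, 464 and 425 FPKM and PPCL-68 EV libraries 594, 394 and 404 FPKM, and neither group differed from residual medium past the threshold (adjusted p 0.284 and 0.32; 0.000476 and 0.0167 without the 4 libraries that lay apart).

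**Figure D3:**
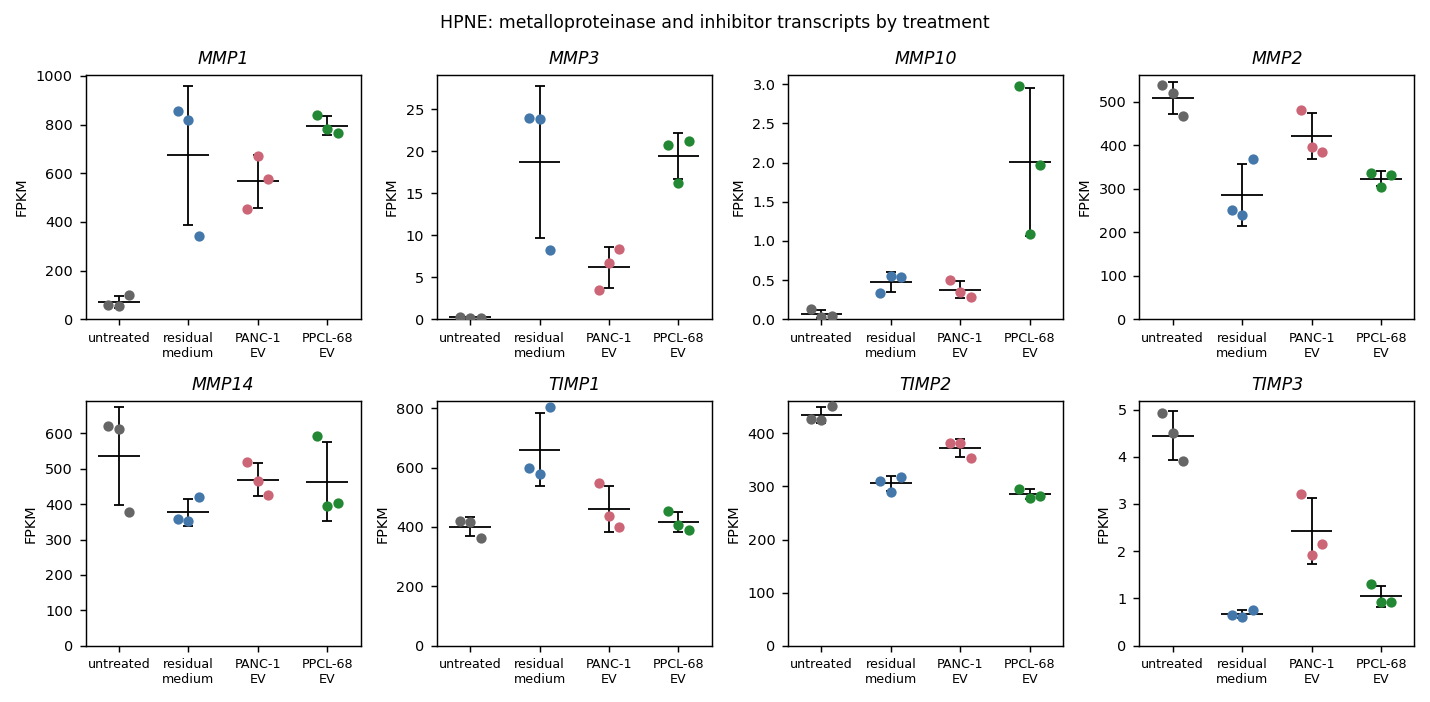
FPKM (y, from 0, with a scale for each gene) in the 12 HPNE libraries by treatment (x), with one point per library and the mean with its SD (n = 3). MMP1 and MMP3 are lowest in untreated cells (54.2 to 100.1 and 0.182 to 0.320 FPKM), and TIMP3 is highest there (3.90 to 4.93 FPKM).

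Of the inhibitors, TIMP1, which is secreted and often induced with MMP1, rose with residual medium in both lines. HPNE had 420, 417 and 364 FPKM untreated and 599.6, 579.6 and 803 FPKM with residual medium (log2 difference 0.71, SE 0.16, adjusted p 0.00522). With PANC-1 EV it had 548, 436 and 400.2 FPKM and with PPCL-68 EV 455, 406 and 389 FPKM. Both vesicle groups lay below the residual medium group, with log2 differences of -0.51 (adjusted p 0.0361) and -0.65 (adjusted p 0.00773), and both overlapped the untreated range (0.19 and 0.06 relative to it, adjusted p 0.393 and 0.791). The PANC-1 EV call was lost in 8 of the 12 fits without 1 library, with adjusted p up to 0.115. In HPDE TIMP1 had 76.0, 80.9 and 78.4 FPKM untreated and 101.8, 97.5 and 90.4 with residual medium. With PANC-1 EV it had 64.7, 71.6 and 63.4 and with PPCL-68 EV 92.3, 87.4 and 84.3. It rose with residual medium (log2 difference 0.30, adjusted p 0.00253), fell below it and below untreated cells with PANC-1 EV (-0.53 and -0.23, adjusted p 1.63e-06 and 0.00232), and missed the threshold against residual medium with PPCL-68 EV (-0.13, adjusted p 0.0502, and 0.0186 to 0.0494 in 4 of the fits without 1 library). PPCL-68 EV libraries lay above the untreated ones (0.16, adjusted p 0.0195, lost without untreated replicate 1 or PPCL-68 EV replicate 1, 0.0732 and 0.0826). The difference of PANC-1 EV against PPCL-68 EV was -0.40 (adjusted p 5e-05).

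TIMP2, the inhibitor that also bridges MMP14 and pro-MMP2, fell in HPNE with residual medium from 428, 425 and 453 to 310.0, 290.5 and 318 FPKM (log2 difference -0.51, SE 0.09, adjusted p 0.0015). PANC-1 EV libraries had 382, 382 and 353 FPKM, above the residual medium group (log2 difference 0.28, adjusted p 0.038), a call lost in 9 of the 12 fits without 1 library (adjusted p up to 0.147) and with size factors (0.0794). PPCL-68 EV libraries had 296, 278 and 282 FPKM and did not differ from residual medium past the threshold (-0.10, adjusted p 0.383). Between the vesicle groups TIMP2 was higher for PANC-1 EV, by 0.38 on the log2 scale (adjusted p 0.0298), a call lost in 8 of the 12 fits without 1 library (adjusted p up to 0.129). In HPDE its level was 10.9 to 16.0 FPKM over all 12 libraries. PANC-1 EV lowered it relative to residual medium, from 16.0, 15.9 and 15.1 to 11.4, 12.2 and 10.9 FPKM (log2 difference -0.42, SE 0.05, adjusted p 5.16e-06). PPCL-68 EV gave 13.8, 13.8 and 14.9 FPKM (-0.14, adjusted p 0.0236), a call lost with size factors (adjusted p 0.0699) and without residual medium replicate 1 or 2 or PPCL-68 EV replicate 1 or 2 (adjusted p up to 0.0819). The difference of PANC-1 EV against PPCL-68 EV was -0.28 (adjusted p 0.000357).

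TIMP3, which is held in the matrix after secretion, moved most in HPNE of the 3 inhibitors followed here. Untreated libraries had 4.93, 4.51 and 3.90 FPKM, residual medium libraries 0.648, 0.610 and 0.757 FPKM, a 6.62-fold lower mean (log2 difference -1.70, SE 0.14, adjusted p 2.91e-05, and -2.72 by limma voom). PANC-1 EV libraries had 3.22, 1.92 and 2.15 FPKM, between those groups and apart from both (log2 difference from residual medium 1.02, SE 0.14, adjusted p 0.00103; from untreated cells -0.68, adjusted p 0.00808). PPCL-68 EV libraries had 1.30, 0.916 and 0.915 FPKM, above the residual medium libraries without passing the threshold (0.29, adjusted p 0.134; 0.23, adjusted p 0.0496, without the 4 libraries that lay apart), and lower than with PANC-1 EV (log2 difference of PANC-1 EV against PPCL-68 EV 0.73, adjusted p 0.0174; lost without PPCL-68 EV replicate 2 or 3, adjusted p 0.0842 and 0.0727).

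The direction of TIMP3 was the opposite in HPDE. It rose with residual medium from 11.9, 11.4 and 9.88 to 18.0, 15.3 and 15.6 FPKM (log2 difference 0.52, SE 0.08, adjusted p 0.000622). It fell below that with PANC-1 EV, at 10.99, 11.7 and 11.1 FPKM (-0.49, adjusted p 0.000114), and with PPCL-68 EV, at 9.21, 9.41 and 11.3 FPKM (-0.66, adjusted p 5.71e-06). Both vesicle groups overlapped the untreated range, and neither differed from untreated cells past the threshold (0.03 and -0.14, adjusted p 0.803 and 0.15). The difference between the lines in the residual medium effect on TIMP3, HPDE minus HPNE, was 2.22 (SE 0.17, adjusted p 1.85e-08). TIMP1 and TIMP3 lie within introns of SYN1 and SYN3 on the opposite strand, and these had at most 0.794% as many reads as the inhibitor in any library.

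**Figure D4:**
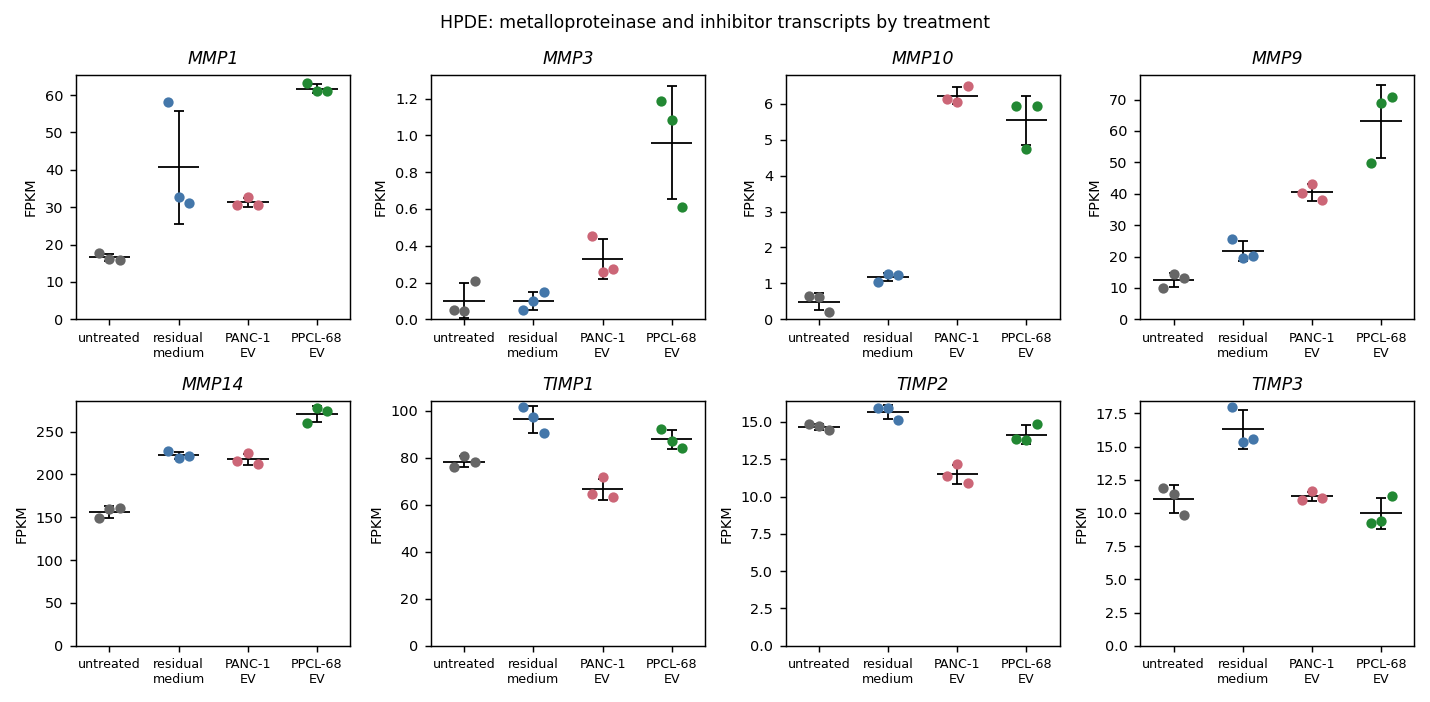
FPKM (y, from 0, with a scale for each gene) in the 12 HPDE libraries by treatment (x), with one point per library and the mean with its SD (n = 3). The vesicle groups are highest for MMP10 (4.75 to 6.49 FPKM) and MMP9 (37.9 to 70.7 FPKM), and the residual medium group is highest for TIMP3 (15.3 to 18.0 FPKM).

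Effects were also compared between the lines, as HPDE minus HPNE, in the fit of all 24 libraries. For residual medium against untreated cells 7 of 9 members differed (5 higher, 2 lower), where 37.2% of all genes did, 20.9% higher and 16.3% lower. For PANC-1 EV against residual medium 6 of 9 differed (3 higher, 3 lower), where 21.1% of all genes did, 8.64% higher and 12.4% lower. For PPCL-68 EV 3 of 9 differed (2 higher, 1 lower), where 25.7% of all genes did and 13.7% were lower, and without the 4 libraries that lay apart 6 of 9. TIMP3 passed the threshold in all 3 of these contrasts, as did MMP9. The sign of MMP9 for the vesicles turned with voom (-2.41 for PANC-1 EV, -1.66 for PPCL-68 EV), and MMP9 had 0 to 51 reads per HPNE library. With size factors the split of all genes was 1502 higher and 1386 lower for PANC-1 EV (from 1144 and 1648), 1923 and 1639 for PPCL-68 EV (from 1593 and 1813) and 2409 and 2861 for residual medium (from 2770 and 2153).

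Other genes of the pathway came from 3 lists. Of 15 genes that activate or restrain metalloproteinases, 13 were tested in HPNE and 11 in HPDE. With residual medium 3 rose and 5 fell in HPNE (18.7% and 25.2% of all genes; median log2 difference -0.18 beside -0.05), and in HPDE 8 rose and 1 fell (9.93% and 10.1% of all genes; median 0.50 beside -0.01). SERPINB2, an inhibitor of urokinase, rose in HPNE from 1.91 ± 1.46 to 78.0 ± 34.8 FPKM (SD over 3 libraries), a log2 difference of 4.75 (SE 0.42, adjusted p 3.6e-05), and in HPDE from 47.5 ± 4.24 to 108.1 ± 26.7 FPKM (1.15, adjusted p 1.86e-05). TIMP4, the inhibitor outside the member list, fell in HPNE from 45.2 ± 12.4 to 5.70 ± 4.98 FPKM (-2.995, adjusted p 0.00169) and was 18.2 ± 7.89 FPKM with PANC-1 EV (log2 difference from residual medium 1.69, adjusted p 0.0391). In HPDE urokinase (PLAU) and its receptor (PLAUR) rose with residual medium, by 0.94 and 1.09 (adjusted p 4.89e-09 and 1.42e-08).

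Relative to residual medium, 3 of these 11 genes rose and 6 fell in HPDE after PANC-1 EV (28.2% and 35.1% of all genes), and 4 rose and 5 fell after PPCL-68 EV (31.3% and 36.4%). SERPINB2 was higher than with residual medium, at 227 ± 16.1 and 249 ± 21.9 FPKM (log2 differences 1.09 and 1.22, adjusted p 3.26e-06 and 7.14e-07). SERPINE2 rose from 9.90 ± 0.727 to 18.8 ± 0.647 and 25.1 ± 0.777 FPKM. PLAT, tissue plasminogen activator, was 19.9 ± 0.732 FPKM with residual medium and 4.98 ± 0.194 after PPCL-68 EV, a log2 difference of -1.81 (SE 0.05, adjusted p 4.32e-12). In HPNE 3 of 13 rose and 0 fell after PANC-1 EV (13.9% and 10.3% of all genes). After PPCL-68 EV 1 rose and 3 fell (20.3% and 19.7% of all genes), among them RECK, a membrane-anchored inhibitor (log2 difference -0.46, adjusted p 0.00295), and FURIN, a convertase that activates MMP14 (-0.42, adjusted p 0.00366).

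Of 16 other metalloproteinase genes only 5 were tested in HPNE and 3 in HPDE. In HPNE 1 rose and 3 fell with residual medium (18.7% and 25.2% of all genes). MMP11, known from stroma around tumours, fell there from 5.99 ± 2.43 to 0.392 ± 0.331 FPKM (log2 difference -2.28, adjusted p 0.000584) and was 3.09 ± 1.76 FPKM with PANC-1 EV (1.49 against residual medium, adjusted p 0.0096). Its untreated and PANC-1 EV groups carried it over the filter. In HPDE 2 of 3 rose with PANC-1 EV (28.2% of all genes) and 3 of 3 with PPCL-68 EV (31.3%), among them the collagenase MMP13 (from 0.684 ± 0.115 to 1.67 ± 0.493 and 1.94 ± 0.0632 FPKM; adjusted p 0.00018 and 2.08e-05). MMP13 was under 1 FPKM with residual medium, and its vesicle groups carried it over the filter. Of 11 adamalysins, related proteinases that shed membrane proteins or cut proteoglycans, 8 were tested in HPNE and 7 in HPDE. ADAMTS5 fell in HPNE with residual medium, from 12.4 ± 2.44 to 1.29 ± 0.563 FPKM (log2 difference -2.56, adjusted p 6.78e-05), where 2 of the 8 rose and 2 fell (18.7% and 25.2% of all genes). ADAMTS1 rose in HPDE with PANC-1 EV, from 41.7 ± 0.596 to 90.6 ± 7.20 FPKM (1.10, adjusted p 1.25e-09), where 3 of the 7 rose and 2 fell (28.2% and 35.1% of all genes).

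The genes most like each member were ranked by Pearson's r of log2(FPKM + 1) over the 12 libraries of a line, as a description, since these libraries share their treatment groups. In HPNE MMP1 was nearest to SERPINB2 (r = 0.992), KIAA0020 and POU2F2, MMP3 to CXCL5 (0.987), SLC25A32 and BTN2A1, and MMP2 to CLIP3 (0.988), FBLIM1 and BCAS3. MMP14 was nearest to C20orf111 (0.961), GNB2L1 and UNK, TIMP1 to BNIP3 (0.951), P4HA1 and SEC14L2, TIMP2 to ABCA8 (0.990), TNFRSF21 and FAM20C, and TIMP3 to GPC1 (0.989), BTBD19 and SCG2. In HPDE MMP1 was nearest to CHMP4B (0.975), LLGL2 and LRP10, MMP9 to ALDH1A3 (0.984), ARID3B and ITPKC, and MMP10 to HDAC9 (0.992), BTG1 and LAMP3. MMP14 was nearest to VLDLR (0.980), P4HA2 and NAGK, TIMP1 was close to ATP13A2 (0.959) and TUSC2, TIMP2 was nearest to C16orf70 (0.978), ZDHHC14 and WSB2, and TIMP3 to LOXL2 (0.968), FAM83A and BNIP3. Among the members themselves, MMP1 and MMP3 (r = 0.946), MMP2 and TIMP3 (0.930) and TIMP2 and TIMP3 (0.925) ran together in HPNE, MMP3 ran opposite to TIMP2 (-0.944) and TIMP3 (-0.935), and in HPDE MMP9 ran with MMP14 (0.907) and MMP10 (0.906) and MMP1 with MMP14 (0.943).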

How the data were processed

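Bulk RNA-seq was deposited as one table per library for 24 libraries, 12 of each line. The submitters' processing notes name CASAVA, STAR, HTSeq, DESeq2 and hg19 without roles, and the library kit kept no strand, per the labels' protocols. The authors deposited FPKM per gene. Values were whole multiples of what 1 read is worth (100% whole, tolerance 0.01), so reads per gene were recovered for depth and for 1 alternative.

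The main test was limma 3.58.1 in R 4.3.3 with a mean-variance trend on log2(FPKM + 1), over the 12 libraries of a line or all 24 for line comparisons. Genes needed a mean of 1 FPKM (11503 genes in HPNE, 12223 in HPDE, 13243 over both). Adjusted p-values are Benjamini-Hochberg over all genes tested, with a threshold of 0.05, for 16 comparisons. A fold change on this scale understates the change of low genes, and folds of mean FPKM are given beside it. Several comparisons share control libraries. Groups came from the sample labels. No 2 replicates agreed within counting noise.

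Same-numbered HPNE libraries of PANC-1 EV and PPCL-68 EV deviated together (r = 0.565, 0.292 and 0.5), which held in 1 of 6 pairs of HPNE groups and 0 of 6 in HPDE. The labels do not tie a number to a shared batch.

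On simulated counts 97.5% of 200 genes changed 2-fold were recovered for PANC-1 EV against residual medium in HPNE (11503 genes) and 100% in HPDE (12223 genes). In these runs 16 unchanged genes were also called in HPNE and 15 in HPDE. How the spread of these counts compares with that of the HPNE libraries, where a library of each group lay apart, was not tested. Alternatives were a pseudocount of 0.1, no filter, size factors, a replicate block, limma voom on recovered reads, only the libraries compared, HPNE without 4 libraries, and each library left out.

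The members and gene lists were chosen with earlier results of these data known. All members are described, and genes named from the other lists are among up to 3 per comparison with the largest changes, called and without overlap between groups. The 3 genes most like a member were ranked by r. Some genes that these rules select are not reported here. Motifs were searched in RefSeq promoters of GRCh38.p14.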

Additional observations from a re-analysis of the deposited data

Results flagged for a closer look

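The effect of a treatment was compared between the lines as HPDE minus HPNE on log2(FPKM + 1), by an interaction term in limma over 24 libraries with Benjamini-Hochberg adjustment over 13243 genes. Of 27 such differences (9 members, 3 contrasts) 16 passed; each is listed here because the test of the difference itself passed.

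For residual medium against untreated cells, 7 of 9 members differed between the lines, where 37.2% of all genes did. MMP1 and MMP3 rose less or not at all in HPDE (differences of -1.99 and -3.87). MMP14 differed by 0.98, MMP2 by 0.85, TIMP2 by 0.59, TIMP3 by 2.22 and MMP9 by 0.73.

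For PANC-1 EV against residual medium 6 of 9 differed, where 21.1% of all genes did. The values were MMP10 1.82, MMP3 1.65, MMP9 0.64, MMP2 -0.54, TIMP2 -0.70 and TIMP3 -1.51. The MMP2 call (adjusted p 0.0483) was lost in 17 of the 24 fits without 1 library and with the replicate block (0.0631), and the MMP9 call (adjusted p 0.0477) in 14 of 24 and without the 4 HPNE libraries that lay apart (0.0775). For PPCL-68 EV 3 of 9 differed, where 25.7% of all genes did, with MMP9 at 1.22, TIMP1 at 0.52 and TIMP3 at -0.94, of which the TIMP1 call (adjusted p 0.0249) was lost in 3 of 24. MMP2 and MMP3 were under 1.2 FPKM in every HPDE library and MMP9 under 0.6 FPKM in every HPNE library, where a pseudocount of 1 holds the effect near 0, and the sign of the MMP9 values turned on other scales.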

How the results depend on the processing

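Of 2670 member values under alternatives, 2504 stayed on their side of the threshold, 119 lost the call and 43 gained one. The sign changed in 44, of which 40 passed the threshold neither before nor after. The other 4 were MMP3 in HPNE for PPCL-68 EV against residual medium without the 4 libraries that lay apart (-0.35, from 0.18), and the line difference of MMP9, which for PANC-1 EV was -0.35 with a pseudocount of 0.1 and -2.41 with voom (from 0.64) and for PPCL-68 EV -1.66 with voom (from 1.22). The cause was not tested. Of the 2670 values, 1872 came from fits without 1 library. Many of those left out a library in neither group compared, which cannot move the difference itself, so the total overstates how far the calls were tried. With no filter on low values 15 of 120 lost the call.

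Members called for PANC-1 EV against residual medium in HPNE were 5, and were 2 with no filter on low values, 3 with the replicate block and 1 with only the libraries compared. For PPCL-68 EV against residual medium they were 1, and 2 with no filter and 5 without the 4 libraries. For PANC-1 EV against untreated cells they were 3, and 6 without the 4. Between the vesicle types in HPNE they were 3, and 1 with no filter, 1 with only the libraries compared and 6 without the 4. The line difference called 6 members for PANC-1 EV, and 3 with voom, and 3 for PPCL-68 EV, and 6 without the 4.

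All genes called in HPNE for PANC-1 EV against residual medium were 2784, and 1329 with no filter, 1436 with only the libraries compared and 6779 without the 4. For PPCL-68 EV the count of 4595 became 2948 with no filter and 7535 without the 4. Against untreated cells, without the 4, residual medium called 8243 (from 5052), PANC-1 EV 7209 (from 2430, and 1176 with no filter) and PPCL-68 EV 7998 (from 4891). Between vesicle types 629 became 210 with no filter, 323 with only the libraries compared and 4185 without the 4. In HPDE residual medium against untreated cells called 2443, and 1057 with no filter. Without the 4 the line differences called 6044 for PANC-1 EV, 5960 for PPCL-68 EV and 8017 for residual medium (from 2792, 3406 and 4923).

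With each library left out in turn, members called in HPNE ranged over 1 to 5 for PANC-1 EV and 1 to 2 for PPCL-68 EV against residual medium, 6 to 7 for residual medium against untreated cells, and 0 to 4 between vesicle types. All genes called ranged over 1344 to 4443, 3099 to 5404, 3044 to 6049 and 135 to 1309 in that order, and for PANC-1 EV and PPCL-68 EV against untreated cells over 1046 to 3346 and 3594 to 5642. In HPDE members ranged over 5 to 7 for PPCL-68 EV against residual medium and 4 to 6 against untreated cells, and all genes over 1423 to 2540 for residual medium against untreated cells. The line differences ranged over 4 to 6, 2 to 4 and 6 to 8 members and 2136 to 4522, 2886 to 4653 and 3786 to 6275 genes for PANC-1 EV, PPCL-68 EV and residual medium.

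With the replicate number as a block, 115 of 120 member values kept their call. Between vesicle types in HPNE, where the numbers deviated together, the members called were 2 in place of 3 and all genes 550 in place of 629. Elsewhere the numbers were not shown to pair the libraries, with r from -0.513 to 0.506 in HPNE and -0.246 to 0.15 in HPDE. Depth limits MMP7 in HPNE to at most 3 reads per library. On a pseudocount of 1 the low genes are understated, among the tested members MMP3 and TIMP3 in HPNE and MMP10 in HPDE. MMP3 in HPDE, under the filter, was understated too. With PPCL-68 EV it was 9.68-fold over residual medium by mean FPKM, against a log2 difference of 0.82.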

Other observations

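The summed FPKM of the 7 proteinases was set against that of the 3 inhibitors in each library, as a description with no test. In HPNE the ratio was 1.33 ± 0.153 in untreated cells (SD, n = 3), 1.43 ± 0.361 with residual medium, 1.76 ± 0.172 after PANC-1 EV and then 2.28 ± 0.1001 after PPCL-68 EV. In HPDE it was 1.80 ± 0.0645, 2.24 ± 0.0971, 3.33 ± 0.0887 and 3.60 ± 0.252 in the same order. The 3 PPCL-68 EV libraries of HPNE lay at 2.18 to 2.38, above every other HPNE library, and both vesicle groups of HPDE lay above both of its controls. The proteinase sum is mostly MMP1, MMP2 and MMP14 in HPNE and MMP14 in HPDE, and transcript levels do not measure active enzyme.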
